A study of Homo sapiens with 64 samples.

Results

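The 44 genes described here encode proteins of mitosis, and they were followed on Illumina expression arrays in lymphoma cell lines exposed to a BET bromodomain inhibitor. They were taken by name from a list drawn up with earlier results of these data known, though no rule on a measured difference chose them. Each gene had 1 probe, the one with the highest mean signal over the 42 arrays of the time course. All 44 had a probe, out of 20046 genes with a probe, and all 44 were detected on each of the 42 time-course arrays and so stood among the 13366 genes tested. The treated groups were SUDHL2 and SUDHL6 cells given OTX015 for 1, 2 or 12 h, and they were set against the same lines given the solvent DMSO for 1, 2 or 12 h and left without treatment (labelled NT), each with 3 arrays numbered as experiments 1 to 3. SUDHL2 and SUDHL6 are established diffuse large B-cell lymphoma lines, usually classed as the activated B-cell and the germinal-centre B-cell type. A panel of 22 untreated lymphoma lines was measured with 1 array per line. All cells were grown in vitro, and the sources used here give neither the dose of OTX015 nor how long the untreated cells were kept. The labels do not say that the 3 experiments were separate cultures, so p-values measure the spread between these arrays, which may be technical. That spread was pooled over the 14 groups of both lines, not taken from the compared groups alone.

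Genes of mitosis are switched on late in each cell cycle and off again soon after division. CDK1 bound to cyclin A or cyclin B starts mitosis, and the phosphatases CDC25B and CDC25C remove the phosphates that hold CDK1 inactive. Chromosomes attach to spindle microtubules through kinetochores, the spindle checkpoint holds cells until all are attached, and the anaphase promoting complex then marks securin and the cyclins for destruction. In resting or early-cycle cells these genes are held down by the DREAM complex, which binds their promoters at a sequence called the cell cycle genes homology region (CHR). In dividing cells MYBL2, FOXM1 and NF-Y, the factor that binds CCAAT boxes, switch them on. BET proteins bind acetylated histones and help transcription along, and OTX015 blocks that binding.

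The list was read in 10 roles. CDK1 and its regulators were CDK1, CCNA2, CCNB1, CCNB2, CDC25B, CDC25C and CDCA3, the last a trigger of mitotic entry. The mitotic kinases were PLK1, AURKA and NEK2 with TPX2, which activates AURKA on the spindle. AURKB, BIRC5 (survivin) and CDCA8 (borealin) belong to the chromosomal passenger complex. The checkpoint proteins were BUB1, BUB1B, BUB3, TTK and MAD2L1, and the kinetochore or centromere proteins NDC80, NUF2, SPC25, CENPA, CENPE and CENPF. KIF11, KIF20A, KIF23, KIF2C, KIF4A and KIF14 are kinesins, motors that move on or take apart microtubules. NUSAP1, PRC1, HMMR, DLGAP5, ASPM and CKAP2 bind or organise spindle microtubules, and ANLN and ECT2 build the contractile ring of cytokinesis. CDC20 activates the anaphase promoting complex, UBE2C is its ubiquitin-conjugating enzyme, and PTTG1 is securin, one of its substrates. The last role held FOXM1, a transcription factor of mitotic genes, and TOP2A, the topoisomerase that untangles sister chromosomes.

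Promoters are shown first because the members share sequence elements there that the choice of genes did not use. RefSeq windows of GRCh38.p14, running from 250 bases before to 50 bases after the annotated start, were matched for 37 of the 44 members, the others being AURKA, TPX2, BIRC5, BUB3, TTK, UBE2C and FOXM1. The 250 bases before the start are printed for CCNB2 (chr15:59104896-59105145), PLK1 (chr16:23678639-23678888) and CDC20 (chr1:43358731-43358980), all on the plus strand, as a cyclin, a kinase and an activator of the anaphase promoting complex whose levels are described below. Capitals mark CHR elements (the form TTTGAA, the form TTCGAA, the form TTTAAA and the form CTTGAA, with their reverse complements) and CCAAT boxes on either strand.
CCNB2: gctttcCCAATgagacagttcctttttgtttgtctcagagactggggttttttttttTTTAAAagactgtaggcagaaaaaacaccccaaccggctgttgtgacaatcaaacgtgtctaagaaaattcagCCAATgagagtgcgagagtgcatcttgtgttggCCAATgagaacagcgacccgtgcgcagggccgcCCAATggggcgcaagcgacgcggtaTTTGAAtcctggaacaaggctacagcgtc
PLK1: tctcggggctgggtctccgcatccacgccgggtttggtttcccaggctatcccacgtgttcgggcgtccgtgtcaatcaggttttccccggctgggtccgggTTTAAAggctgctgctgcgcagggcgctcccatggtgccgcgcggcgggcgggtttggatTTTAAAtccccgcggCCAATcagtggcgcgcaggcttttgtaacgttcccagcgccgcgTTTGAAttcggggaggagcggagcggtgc
CDC20: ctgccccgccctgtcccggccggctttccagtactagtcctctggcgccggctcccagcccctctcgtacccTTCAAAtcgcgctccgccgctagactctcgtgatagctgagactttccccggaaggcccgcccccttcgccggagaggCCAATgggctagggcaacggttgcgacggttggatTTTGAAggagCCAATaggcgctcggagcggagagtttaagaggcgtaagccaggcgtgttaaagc
CCNB2 holds 2 CHR elements and 4 CCAAT boxes there, PLK1 holds 3 and 1, and CDC20 holds 2 and 2, one of its CHR elements being read on the reverse strand.

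Over the whole window, a CHR element stood in 32 of 37 members, or 86.5% (exact 95% binomial interval 71.2 to 95.5), against 32.2% of all 35116 promoter windows of the same length. A CCAAT box stood in 28 of 37 members, or 75.7% (58.8 to 88.2), against 34.6% of all windows. Both together were found in 70.3% of members and 12.4% of all windows, and 2 or more CCAAT boxes in 45.9% of members and 10.8% of all windows. Of the 4 forms searched on both strands, TTTGAA was the most frequent in the members, in 67.6% (exact 95% interval 50.2 to 82), against 15.2% of all windows. TTTAAA was in 37.8% of members (22.5 to 55.2) and 12.2% of all windows. TTCGAA was in 2 of 37 members, or 5.41% (0.661 to 18.2), and 1.45% of all windows. CTTGAA was in 3 of 37, or 8.11% (1.7 to 21.9), and 11.2% of all windows. The members were chosen by name and not sampled, so these intervals are a description and no test. The 35116 windows were not reduced to 1 per gene, as those of the members were. The 56 CHR elements had a median position of -27.0 bases from the start, and the 60 CCAAT boxes a median of -69.0 bases, with no overlap between CHR elements and 1 overlap of a CHR element with a CCAAT box. No CHR form was found in the windows of CDC25B, CDC25C, NEK2, AURKB and CKAP2, and CDC25B, CDC25C and CKAP2 had neither element. Each member was read in 1 window only, the first listed for its symbol. An empty window therefore does not show that a gene lacks these elements at another start or farther away. A match is a string of letters in a window and was not tested for binding.

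**Figure D1:**
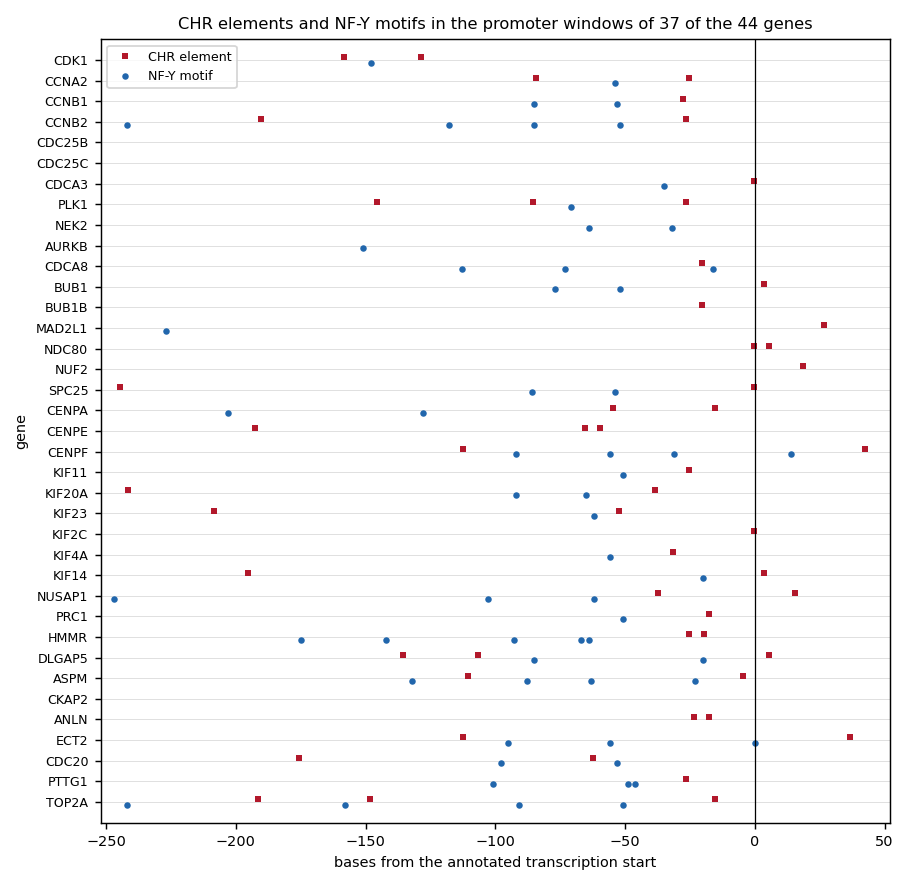
Position of CHR elements (red squares) and NF-Y motifs, the CCAAT boxes (blue circles), in bases from the annotated start (x axis), for each of the 37 genes with a RefSeq window (y axis). CHR elements have a median position of -27.0 bases and CCAAT boxes one of -69.0 bases, and the rows of CDC25B, CDC25C and CKAP2 are empty.

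The arrays had median raw signals of 88.55 to 115.5 in the time course and 88.27 to 118 in the panel, with 33.96 to 47.38% of probes above background, and log2 values of arrays of one group correlated at 0.982 to 0.9952. The B-cell genes MS4A1, CD79A, CD79B and CD22 were detected on 42 of 42 arrays, the PAX5 probe on 0, and CD3E, NKG7, CSF1R and KRT8 on 0. CD68 was detected on 42, CD14 on 32, LYZ on 26, EPCAM on 21 (all SUDHL2), CD3D on 18 (all SUDHL2), CD2 on 9, COL1A1 on 6 and COL1A2 on 1 of 42 arrays. The third SUDHL6 experiment stood apart at 12 h. The mean log2 intensity of the 44 genes was 8.88, 8.88 and 9.58 on the SUDHL6 OTX015 arrays at 12 h, and 8.83, 8.75 and 9.37 on the DMSO arrays, the last of each being the third experiment. In SUDHL2 the same mean was 9.27, 9.25 and 9.25 with OTX015 and 8.84, 8.86 and 9.01 with DMSO at 12 h. These are bulk RNA values, in which fewer cells in mitosis and less RNA per mitotic cell cannot be told apart.

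At 1 h none of the 44 genes was called with OTX015 against DMSO in either line. Calls here and below are at an adjusted p under 0.05 (limma moderated test, Benjamini-Hochberg over all 13366 genes), and differences are in log2 intensity with the SE of the fit, 3 against 3 arrays. In SUDHL2 0 of 44 were called, with 1 at an unadjusted p under 0.05 and a median difference of 0.02, where 0.195% of all genes were called. In SUDHL6 0 of 44 were called, with 6 at an unadjusted p under 0.05 and a median of -0.10, where 0.83% of all genes were called. The lowest member there was KIF23, the motor of the central spindle, at -0.42 ± 0.17 (adjusted p = 0.48), followed by AURKA at -0.36 ± 0.13 (adjusted p = 0.33). The other central members there were CDC20 (-0.22 ± 0.16, adjusted p = 0.92), TOP2A (-0.15 ± 0.14, 0.97), PLK1 (-0.12 ± 0.16, 0.99), CDK1 (-0.10 ± 0.18, 1), CCNB1 (-0.05 ± 0.20, 1), BUB1 (0.02 ± 0.13, 1) and FOXM1 (0.05 ± 0.22, 1).
In SUDHL2 at 1 h the central members were PLK1 (-0.34 ± 0.16, adjusted p = 1), CCNB1 (-0.22 ± 0.20, 1), CDC20 (-0.18 ± 0.16, 1), AURKA (-0.13 ± 0.13, 1), TOP2A (-0.11 ± 0.14, 1), CDK1 (-0.10 ± 0.18, 1), FOXM1 (-0.08 ± 0.22, 1) and BUB1 (0.15 ± 0.13, 1).

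AURKA, the kinase that matures centrosomes and builds spindle poles, was lower with OTX015 than with DMSO at 2 h in both lines. In SUDHL2 it measured 10.49, 10.37 and 10.57 with OTX015 and 10.97, 10.92 and 10.97 with DMSO. All OTX015 arrays lay below all DMSO arrays, the difference was -0.48 ± 0.13 (adjusted p = 0.026), a 1.39-fold decrease, and AURKA was the 1 member of 44 that fell, where 2.47% of all genes fell. That call was lost when any 1 of 5 of the 6 arrays was left out, the exception being experiment 3 with OTX015, without which 3 members fell. In SUDHL6 AURKA measured 9.82, 9.70 and 9.84 with OTX015 and 10.39, 10.31 and 10.50 with DMSO. The arrays again did not overlap, the difference was -0.61 ± 0.13 (adjusted p = 0.0014), and a second AURKA probe gave -0.57 (adjusted p over all probes 0.0045). In SUDHL2 the AURKA mean was 10.56 untreated, 10.48 with OTX015 and 10.95 with DMSO at 2 h. In SUDHL6 it was 10.12, 9.79 and 10.4 in the same order. All 2 h differences here are from DMSO, which for some members lay above the untreated level, as described further on. OTX015 at 2 h was not tested against untreated cells.

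CENPA, the histone variant that marks centromeres, was the other member that fell in SUDHL6 at 2 h, where 3.26% of all genes fell. It measured 8.89, 8.89 and 8.71 with OTX015 and 9.29, 9.30 and 9.54 with DMSO, a difference of -0.55 ± 0.16 (adjusted p = 0.024). The CENPA mean was 8.96 in untreated SUDHL6, 8.83 with OTX015 and 9.38 with DMSO at 2 h. A second CENPA probe gave -0.30 for OTX015 against DMSO (adjusted p over all probes 0.31). In SUDHL6 the OTX015 and DMSO arrays of one experiment number deviated together from their group means, and with the experiment number as a block 5 members fell in place of 2. The CENPA call was lost without OTX015 experiment 2 (-0.58, adjusted p = 0.052) or 3 (-0.49, 0.1), each of which left 1 member called, without DMSO experiment 3 (-0.47, 0.13), and with 75th percentile scaling (-0.44, 0.15).

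Most other members lay below 0 at 2 h without passing the test. In SUDHL2 32 of 44 differences were below 0, with a median of -0.12 against 0.01 over all genes, and in SUDHL6 36 of 44, with a median of -0.15 against 0.02, which was -0.02 when arrays were scaled to their 75th percentile. The SUDHL2 differences of KIF23 (-0.58 ± 0.17, adjusted p = 0.052), CENPE (-0.61 ± 0.19, 0.078) and BUB3 (-0.37 ± 0.12, 0.091) came nearest to the threshold. CENPE is a kinesin that carries chromosomes to the spindle equator, and BUB3 is a checkpoint scaffold. CCNB1, cyclin B1, measured 9.07, 8.94 and 8.92 with OTX015 and 9.80, 9.12 and 9.60 with DMSO in SUDHL2, and its difference of -0.53 ± 0.20 had an adjusted p of 0.20. In SUDHL6 NDC80, which grips microtubules at the kinetochore, was at -0.50 ± 0.17 (adjusted p = 0.066), CKAP2 at -0.42 ± 0.14 (0.063) and PLK1, the kinase of mitotic entry, at -0.39 ± 0.16 (0.17).
Other central members were nearer to 0 at 2 h. In SUDHL2 CDK1 was at -0.26 ± 0.18 (adjusted p = 0.68), PLK1 at -0.18 ± 0.16 (0.80), CDC20 at -0.16 ± 0.16 (0.83), TOP2A at -0.10 ± 0.14 (0.90), FOXM1 at -0.03 ± 0.22 (0.98) and BUB1 at 0.20 ± 0.13 (0.64). In SUDHL6 FOXM1 was at -0.37 ± 0.22 (adjusted p = 0.44), CCNB1 at -0.25 ± 0.20 (0.61), CDK1 at -0.11 ± 0.18 (0.85), TOP2A at -0.03 ± 0.14 (0.95), CDC20 at 0.13 ± 0.16 (0.77) and BUB1 at 0.15 ± 0.13 (0.65).

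**Figure D2:**
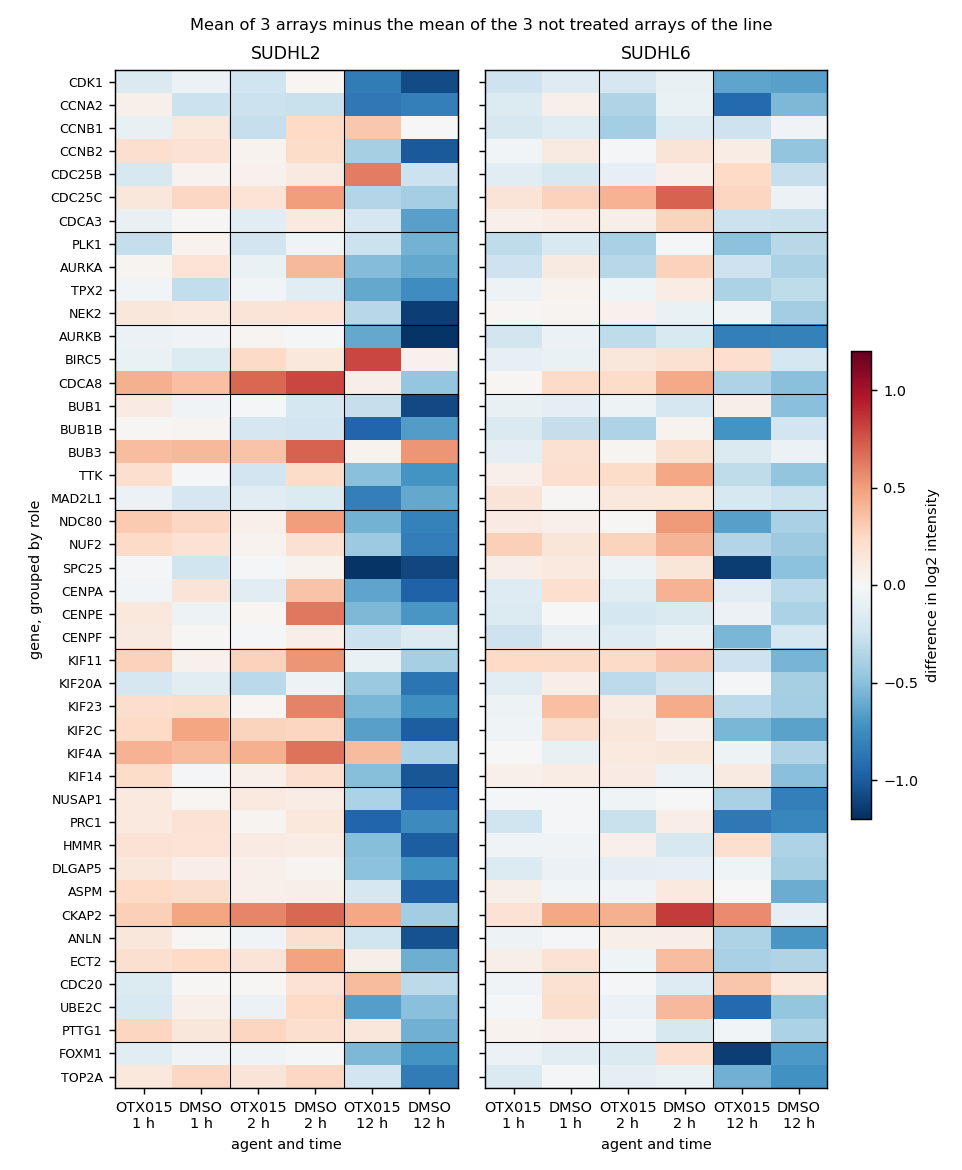
Mean log2 intensity of the 3 arrays of each group minus the mean of the 3 untreated arrays of the same line (colour, red higher and blue lower), for the 44 genes grouped by role (rows) and for OTX015 and DMSO at 1, 2 and 12 h (columns). At 12 h most rows are blue, with medians of -0.43 for OTX015 and -0.73 for DMSO in SUDHL2, and -0.26 for OTX015 and -0.40 for DMSO in SUDHL6.

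Among 97 tested genes of a second list of mitosis genes that are no members, 7 fell in SUDHL2 and 5 in SUDHL6 at 2 h, and 0 rose in either. Of all genes 2.47% fell in SUDHL2 and 3.26% in SUDHL6. WEE1, the kinase that holds CDK1 inactive, fell by 0.85 ± 0.15 on the log2 scale in SUDHL2 (adjusted p = 0.00016) and by 0.93 ± 0.15 in SUDHL6 (adjusted p = 2.1e-05). KIF18A, a kinesin that dampens chromosome movement, and the centromere proteins CENPQ and CENPL fell in SUDHL2 by 0.71, 0.68 and 0.61. Of these 7 genes, CENPL (0.91), MIS12 (0.66), BORA (0.62), KIF18A (0.53) and WEE1 (0.45) were higher with DMSO at 2 h than in untreated SUDHL2 cells. CENPQ and PLK4 were not called there. HJURP, which loads CENPA at centromeres, fell by 0.66 ± 0.16 in SUDHL6 (adjusted p = 0.0066), with CENPO at -0.46 and CENPB at -0.40. At 1 h 2 of the 97 fell in SUDHL6, CDC25A, an activator of CDKs, by 0.61 ± 0.13 (adjusted p = 0.0075) and FBXO5, an inhibitor of the anaphase promoting complex, by 0.54 ± 0.14 (adjusted p = 0.05, just under the threshold), and 0 in SUDHL2. Of all genes 0.83% were called at 1 h in SUDHL6 and 0.195% in SUDHL2, in either direction.

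At 12 h in SUDHL2, 20 of the 44 genes were higher with OTX015 than with DMSO and 1 was lower, where 17.7% of all genes rose and 16.5% fell. The median over the 44 was 0.34, against 0.01 over all genes, and 36 of 44 differences were above 0. With scaling to the 75th percentile the median was 0.21, with 14 genes higher and 2 lower. The OTX015 and DMSO arrays did not overlap for 23 of the 44 genes, called or not, as was so for 44.8% of all genes. These are differences from DMSO at the same hour, and the DMSO arrays themselves lay below the untreated arrays at 12 h, as described further on.

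CKAP2, a microtubule-stabilising spindle protein, had the greatest SUDHL2 difference at 12 h. It measured 10.09, 9.94 and 9.67 with OTX015 and 8.85, 8.87 and 9.34 with DMSO, a rise of 0.88 ± 0.14 (adjusted p = 1.7e-06), or 1.84-fold. A second CKAP2 probe rose by 0.67. The other spindle proteins ASPM (0.78 ± 0.17, adjusted p = 0.00027), NUSAP1 (0.58 ± 0.13, 0.00046) and HMMR (0.49 ± 0.16, 0.017) rose too, so 4 of 6 of this role were called, while DLGAP5 was at 0.24 ± 0.17 and PRC1, which bundles microtubules of the central spindle, at -0.19 ± 0.14.
ASPM, a spindle pole protein, measured 10.20, 10.03 and 10.20 with OTX015 and 9.38, 9.18 and 9.53 with DMSO. Each OTX015 array was above each DMSO array.

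Among CDK1 and its regulators 3 of 7 rose in SUDHL2 at 12 h. CDC25B measured 9.84, 9.67 and 9.68 with OTX015 and 9.20, 8.97 and 8.40 with DMSO, a rise of 0.87 ± 0.20 (adjusted p = 0.00040). Cyclin B2, CCNB2, measured 10.92, 10.96 and 10.90 with OTX015 and 10.25, 10.21 and 10.50 with DMSO, a rise of 0.60 ± 0.14 (adjusted p = 0.00059). CDCA3 rose by 0.46 ± 0.18 (adjusted p = 0.043). CDK1 itself, at 9.18, 9.24 and 9.27 with OTX015 and 8.75, 9.05 and 9.19 with DMSO, overlapped between groups and was not called (0.24 ± 0.18, adjusted p = 0.35). Cyclin B1, CCNB1, at 9.59, 9.60 and 9.55 with OTX015 and 9.24, 9.12 and 9.41 with DMSO, did not overlap and was not called either (0.32 ± 0.20, adjusted p = 0.24). CCNA2, cyclin A2, was at -0.04 ± 0.17. CDC25C had 3 detected probes that disagreed: the chosen one was at 0.06 ± 0.17, and the other probes were at 0.91 (adjusted p over all probes 1e-06) and 0.56 (0.0066).

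All 3 chromosomal passenger genes rose in SUDHL2 at 12 h. BIRC5 measured 9.19, 9.17 and 9.21 with OTX015 and 8.48, 8.37 and 8.47 with DMSO (0.75 ± 0.18, adjusted p = 0.00094), and a second BIRC5 probe was at -0.04 (adjusted p over all probes 0.91). AURKB, the kinase of the complex, measured 9.39, 9.14 and 9.62 with OTX015 and 8.75, 8.90 and 8.79 with DMSO (0.57 ± 0.20, adjusted p = 0.021). CDCA8 rose by 0.54 ± 0.15 (adjusted p = 0.0042).
Of the kinases and TPX2, NEK2, which splits centrosomes apart, rose by 0.80 ± 0.18 (adjusted p = 0.00037), from arrays at 9.73, 9.81 and 9.56 with OTX015 and 8.86, 8.75 and 9.08 with DMSO. Its second probe was at 0.21 (adjusted p over all probes 0.43). PLK1 (0.32 ± 0.16, adjusted p = 0.13), TPX2 (0.14 ± 0.17, 0.57) and AURKA (0.08 ± 0.13, 0.68) did not pass the test.

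The checkpoint genes went apart in SUDHL2 at 12 h. BUB1, the kinase that recruits checkpoint proteins to kinetochores, measured 9.28, 9.15 and 9.17 with OTX015 and 8.42, 8.26 and 8.50 with DMSO, a rise of 0.80 ± 0.13 (adjusted p = 2.3e-06), or 1.74-fold. BUB3, its binding partner, measured 10.75, 10.76 and 10.78 with OTX015 and 11.11, 11.26 and 11.40 with DMSO, a fall of -0.49 ± 0.12 (adjusted p = 0.0011). Of the other 3 BUB3 probes, 2 also fell, each at -0.56, and the other was at -0.12. TTK (0.22 ± 0.16), MAD2L1 (-0.20 ± 0.19) and BUB1B (-0.28 ± 0.16, adjusted p = 0.19) were not called, and BUB1 was the only 1 of 5 checkpoint genes to rise.
No kinetochore or centromere gene was called, with a median of 0.20 over the 6 and a range of -0.10 for CENPF to 0.39 for NUF2.

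Among the kinesins KIF4A, which condenses chromosomes and shortens the central spindle, rose by 0.76 ± 0.15 (adjusted p = 0.00011), with 8.89, 8.76 and 8.97 with OTX015 and 8.18, 8.00 and 8.18 with DMSO. KIF14, a cytokinesis kinesin, rose by 0.52 ± 0.18 (adjusted p = 0.021) and KIF2C, which takes microtubules apart at centromeres, by 0.34 ± 0.12 (0.024). KIF20A (0.43 ± 0.18, adjusted p = 0.062), KIF11, the motor that pushes spindle poles apart (0.32 ± 0.15, 0.10), and KIF23 (0.18 ± 0.17, 0.47) did not pass.
Both cytokinesis genes rose. ANLN, which links actin and myosin in the ring, measured 8.15, 8.19 and 8.01 with OTX015 and 7.25, 7.20 and 7.48 with DMSO (0.80 ± 0.22, adjusted p = 0.0031), and ECT2, which switches on RhoA, rose by 0.66 ± 0.18 (adjusted p = 0.0029).
PTTG1, securin, measured 12.24, 12.12 and 12.19 with OTX015 and 11.57, 11.42 and 11.39 with DMSO (0.72 ± 0.13, adjusted p = 1.2e-05). CDC20 measured 11.86, 11.75 and 11.97 with OTX015 and 11.33, 10.99 and 11.20 with DMSO (0.69 ± 0.16, adjusted p = 0.00052). In both genes each OTX015 array lay above each DMSO array, while UBE2C was at -0.16 ± 0.20 (adjusted p = 0.62), with a second probe at -0.57 (adjusted p over all probes 0.011). TOP2A, at 10.49, 10.64 and 10.69 with OTX015 and 9.89, 10.01 and 10.11 with DMSO, rose by 0.60 ± 0.14 (adjusted p = 0.00060). FOXM1, at 7.74, 7.47 and 7.62 with OTX015 and 7.77, 7.56 and 6.95 with DMSO, overlapped and was not called (0.18 ± 0.22, adjusted p = 0.59).

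**Figure D3:**
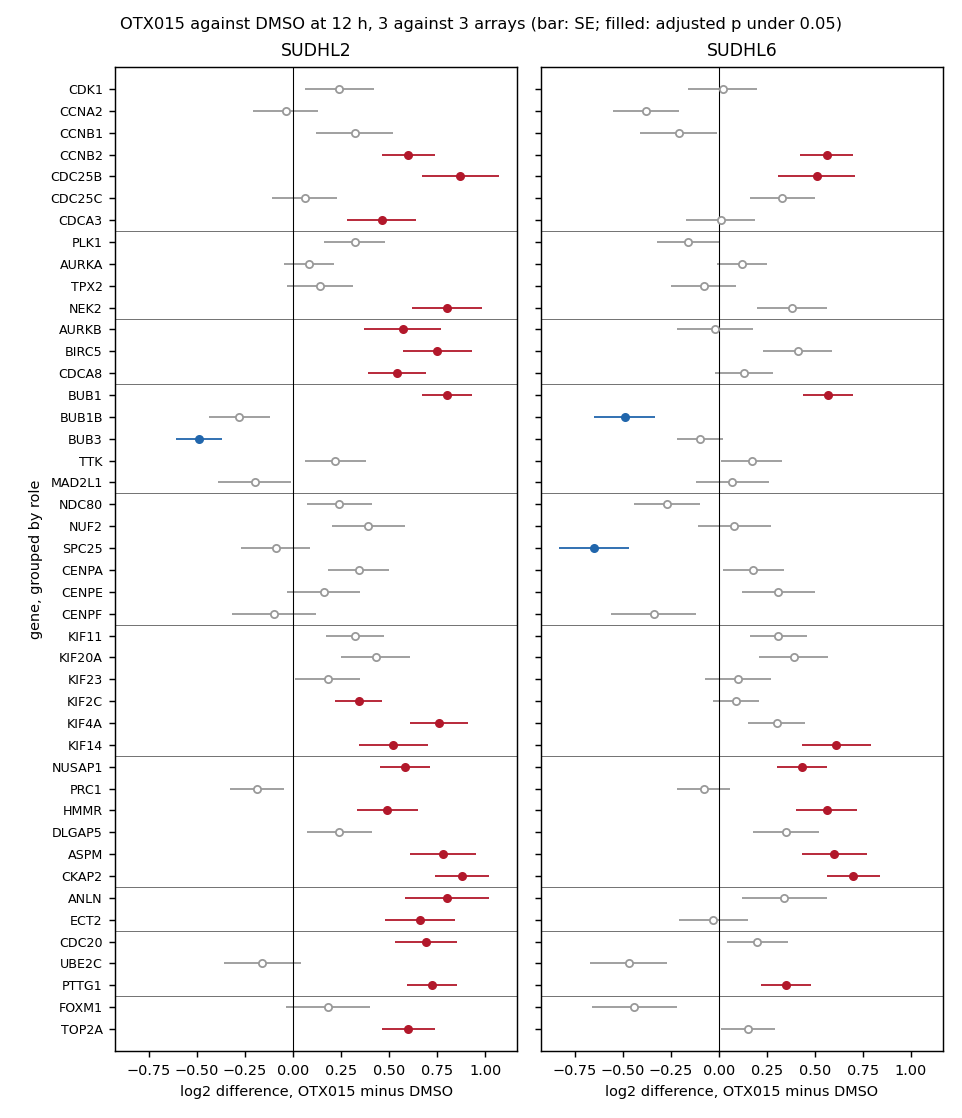
Log2 difference of OTX015 from DMSO at 12 h (x axis) with its SE (bar) for each of the 44 genes grouped by role (y axis), in SUDHL2 (left) and SUDHL6 (right), 3 against 3 arrays. Filled points passed the test: 20 higher (red) and 1 lower (blue) in SUDHL2, and 9 higher and 2 lower in SUDHL6.

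The comparison was also read within slides. A slide is here the set of arrays whose names share the number before the final letter, an inference from those names. On the slide with 2 OTX015 and 2 DMSO arrays of SUDHL2 at 12 h, the median of the 44 was 0.41, and on the slide with 1 of each it was 0.26.

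In SUDHL6 at 12 h, 9 of the 44 genes rose with OTX015 against DMSO and 2 fell, where 13.9% of all genes rose and 13% fell. The median of the members was 0.14 against 0.02 over all genes. CKAP2 again had the greatest difference, with 9.60, 9.31 and 9.83 with OTX015 and 8.94, 8.88 and 8.84 with DMSO (0.70 ± 0.14, adjusted p = 0.00011), and BUB1 measured 9.59, 9.56 and 10.04 with OTX015 and 9.10, 8.89 and 9.48 with DMSO (0.57 ± 0.13, adjusted p = 0.00050). The OTX015 and DMSO arrays did not overlap for 2 of the 44 genes, CKAP2 and BUB1, where that was so for 36.7% of all genes. Of the spindle genes 4 of 6 rose, CKAP2 with ASPM (0.60 ± 0.17, adjusted p = 0.0059), HMMR (0.56 ± 0.16, 0.0076) and NUSAP1 (0.43 ± 0.13, 0.011), whose second probe was at 0.14 (adjusted p over all probes 0.61).

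CCNB2 measured 10.15, 10.20 and 10.86 with OTX015 and 9.66, 9.55 and 10.33 with DMSO in SUDHL6 at 12 h (0.56 ± 0.14, adjusted p = 0.0020). In both groups the third experiment was the highest, and within each experiment the OTX015 array was the higher one. KIF14 measured 7.82, 7.88 and 8.85 with OTX015 and 7.24, 7.57 and 7.91 with DMSO (0.61 ± 0.18, adjusted p = 0.0079). CDC25B (0.51 ± 0.20, adjusted p = 0.045) and PTTG1 (0.35 ± 0.13, 0.035) rose as well. The CDC25B call was lost with no filter on detection (adjusted p = 0.055), without the third experiment (0.075) and without OTX015 experiment 1 (0.064).

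SPC25, a subunit of the NDC80 complex, and BUB1B, which holds the anaphase promoting complex in check, fell in SUDHL6 at 12 h. SPC25 measured 7.08, 7.08 and 7.84 with OTX015 and 7.78, 7.93 and 8.22 with DMSO (-0.65 ± 0.18, adjusted p = 0.0054), and a second SPC25 probe was at -0.17 (adjusted p over all probes 0.67). BUB1B measured 8.20, 7.99 and 8.53 with OTX015 and 8.63, 8.46 and 9.09 with DMSO (-0.49 ± 0.16, adjusted p = 0.018). The BUB1B call was lost without DMSO experiment 3 (-0.31, adjusted p = 0.2) and without OTX015 experiment 1 (-0.47, 0.053) or 2 (-0.37, 0.14). The SPC25 call was lost without OTX015 experiment 1 (-0.52, adjusted p = 0.054) or 2 (-0.52, 0.055).
FOXM1 was at -0.44 ± 0.22 (adjusted p = 0.16), CCNB1 at -0.21 ± 0.20 (0.50), PLK1 at -0.16 ± 0.16 (0.51), CDK1 at 0.02 ± 0.18 (0.96), AURKA at 0.12 ± 0.13 (0.54), TOP2A at 0.15 ± 0.14 (0.49) and CDC20 at 0.20 ± 0.16 (0.38), none of them called. Among probes not chosen, 1 of BUB3 was at -0.65 (adjusted p over all probes 0.00038), 1 of CDC25C at 0.50 (0.0059) and 1 of UBE2C at -0.49 (0.04).

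The third SUDHL6 experiment moved these calls. Without it on both sides, 9 members rose and 4 fell, 10 of them among the 11 above. With the experiment number as a block, 11 rose and 4 fell. Without its OTX015 array alone, 2 members rose, CKAP2 and BUB1, 8 fell, and the median of the 44 was -0.06. The other 7 risen genes were then not called, KIF14, ASPM, HMMR, CCNB2, CDC25B and NUSAP1 with adjusted p of 0.072 to 0.23 and PTTG1 with 0.41. CCNB1 (-0.63) and FOXM1 (-0.67) were then called lower. Without its DMSO array alone, 17 rose and 1 fell. Without DMSO experiment 2, 4 rose and 3 fell, with ASPM, CDC25B, HMMR and NUSAP1 among the lost calls. Without DMSO experiment 1, the calls of KIF14 (adjusted p = 0.095), ASPM (0.076), CDC25B (0.24) and NUSAP1 (0.12) were lost. The pooled SE can be small for these groups: KIF14 had an SD of 0.58 with OTX015 and 0.33 with DMSO. In SUDHL2 at 12 h its SD was 0.15 and 0.12. In a fit of only the groups compared, KIF14 (adjusted p = 0.099), ASPM (0.11), CCNB2 (0.082), NUSAP1 (0.12) and BUB1B (0.069) were among the lost calls. On the slide with 2 OTX015 arrays and 1 DMSO array the median of the members was 0.04. On the other slide it was 0.53, with OTX015 experiment 3 set against DMSO experiments 2 and 3, so unlike experiments are mixed there.

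Of the 97 other mitosis genes, 30 rose and 8 fell in SUDHL2 at 12 h, and 7 rose and 9 fell in SUDHL6. Of all genes 17.7% rose and 16.5% fell in SUDHL2, and 13.9% rose and 13% fell in SUDHL6. The falls in SUDHL2 and both counts in SUDHL6 were thus smaller shares of the 97 than of all genes. CDC25A fell by 1.13 ± 0.13 on the log2 scale in SUDHL2 (adjusted p = 3.4e-09) and by 1.17 ± 0.13 in SUDHL6 (adjusted p = 3.3e-09). LIN9, a subunit shared by the DREAM complex and its activating counterpart, fell by 1.02 ± 0.18 in SUDHL2 (adjusted p = 1.5e-05) and by 0.76 ± 0.18 in SUDHL6 (0.0011). TRIP13, which takes apart checkpoint complexes, fell by 0.63 ± 0.16 and 0.88 ± 0.16 in the same order of lines. ANAPC1, the largest scaffold of the anaphase promoting complex, fell by 0.66 ± 0.11 in SUDHL2, and PKMYT1, a kinase that restrains CDK1, by 0.93 ± 0.23 in SUDHL6. Upward, KNL1, the kinetochore platform for BUB1 and BUB3, rose by 0.99 ± 0.13 in SUDHL2 (adjusted p = 1.2e-07) and by 0.75 ± 0.13 in SUDHL6 (2.7e-05), and SMC4, a condensin subunit, by 0.71 ± 0.10 and 0.57 ± 0.10. ANAPC16, a small subunit of the anaphase promoting complex, rose by 1.25 ± 0.19 and 0.59 ± 0.19, SPC24, the partner of SPC25, by 0.78 ± 0.17 in SUDHL2, and CKAP5, a microtubule polymerase, by 0.61 ± 0.12 in SUDHL6.

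The comparison of DMSO with untreated cells shows how the members moved without the inhibitor. The untreated arrays have no time label, so the solvent and the time in culture cannot be told apart. At 12 h in SUDHL2, 34 of the 44 genes fell and 1 rose, where 10.9% of all genes fell and 12.2% rose, with a median of -0.73 over the members and 0.01 over all genes. AURKB measured 8.75, 8.90 and 8.79 with DMSO at 12 h and 10.05, 9.99 and 9.93 untreated, the greatest fall (-1.18 ± 0.20, adjusted p = 1.3e-05), or 2.26-fold. BUB1 measured 8.42, 8.26 and 8.50 with DMSO and 9.59, 9.51 and 9.36 untreated (-1.09 ± 0.13, adjusted p = 1.2e-08). The arrays of the 2 groups did not overlap for 39 of the 44 genes, where that was so for 40.4% of all genes.

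CDK1 measured 8.75, 9.05 and 9.19 with DMSO at 12 h and 9.88, 10.21 and 10.13 in untreated SUDHL2 (-1.08 ± 0.18, adjusted p = 1.4e-05). CCNB2 measured 10.25, 10.21 and 10.50 with DMSO and 11.32, 11.39 and 11.29 untreated (-1.01 ± 0.14, adjusted p = 4.2e-07). CCNB1 did not follow, with 9.24, 9.12 and 9.41 with DMSO and 9.27, 9.37 and 9.13 untreated (0.00 ± 0.20, adjusted p = 1), and CDC20 was at -0.31 ± 0.16 (0.17). NEK2 (-1.13 ± 0.18, adjusted p = 4.3e-06), SPC25 (-1.09 ± 0.18, 1.1e-05), ANLN (-1.05 ± 0.22, 0.00029) and KIF14 (-1.03 ± 0.18, 2.3e-05) were the other falls of the 8 greatest, and a second SPC25 probe was at -0.03. TOP2A (-0.84 ± 0.14, adjusted p = 1.2e-05), FOXM1 (-0.72 ± 0.22, 0.015), AURKA (-0.60 ± 0.13, 0.00044) and PLK1 (-0.57 ± 0.16, 0.0068) fell as well. The FOXM1 call was lost without untreated experiment 1 (-0.66, adjusted p = 0.063) or 2 (-0.67, 0.062) or DMSO experiment 3 (-0.48, 0.17), and the PLK1 call without DMSO experiment 3 (-0.47, 0.056).
By role, PLK1, AURKA, NEK2 and TPX2 all fell, as did all 6 spindle genes, both cytokinesis genes, FOXM1 and TOP2A. So did 5 of 6 kinetochore genes, 4 of 6 kinesins, 4 of 5 checkpoint genes and 4 of 7 genes of the CDK1 group. Of the passenger genes 2 of 3 fell, and of the anaphase promoting complex role 1 of 3. DLGAP5 fell with its chosen probe (-0.73 ± 0.17), and a second probe was at 0.43 (adjusted p over all probes 0.11).
BUB3 was the 1 gene that rose, at 11.11, 11.26 and 11.40 with DMSO and 10.77, 10.73 and 10.70 untreated (0.52 ± 0.12, adjusted p = 0.00087). Its other detected probes were at 0.54 (adjusted p over all probes 0.0035), 0.07 (0.87) and -0.09 (0.84), and the mean of all 4 was not called (0.26, adjusted p = 0.13). Its OTX015 arrays at 12 h differed from the untreated ones by 0.03 ± 0.12 (adjusted p = 0.86).

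In SUDHL6 17 of the 44 genes fell and 0 rose with DMSO at 12 h, where 8.17% of all genes fell, with a median of -0.40. NUSAP1 measured 10.16, 10.22 and 10.86 with DMSO and 11.19, 11.16 and 11.33 untreated (-0.81 ± 0.13, adjusted p = 1.7e-05). AURKB measured 9.14, 8.98 and 9.70 with DMSO and 9.87, 10.02 and 10.35 untreated (-0.80 ± 0.20, adjusted p = 0.0030), and PRC1 fell by 0.78 ± 0.14 (8.7e-05). TOP2A (-0.73 ± 0.14, adjusted p = 2e-04), ANLN (-0.70 ± 0.22, 0.02), FOXM1 (-0.68 ± 0.22, 0.029), CDK1 (-0.65 ± 0.18, 0.0094), KIF2C (-0.64 ± 0.12, 0.00015), BUB1 (-0.50 ± 0.13, 0.0039) and AURKA (-0.38 ± 0.13, 0.038) fell too. The AURKA call was lost with 75th percentile scaling (adjusted p = 0.077), in a fit of this line alone (0.11), and without untreated experiment 1 (-0.40, 0.071) or 3 (-0.30, 0.16) or DMSO experiment 1 (-0.41, 0.061) or 2 (-0.21, 0.33). The calls of ANLN and FOXM1 were also lost without DMSO experiment 1 or 2 or untreated experiment 3, that of CDK1 without DMSO experiment 1 or 2, and that of BUB1 without DMSO experiment 2. PLK1 was at -0.32 ± 0.16 (adjusted p = 0.18), CCNB1 at -0.04 ± 0.20 (0.93) and CDC20 at 0.13 ± 0.16 (0.64). The count moved with single arrays: 29 fell without the third experiment, 32 without its DMSO array alone, 10 without its untreated array alone, and 6 or 5 without DMSO experiment 1 or 2. On the slides taken one at a time the medians of the 44 were -0.53 and -0.42.

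At 1 and 2 h 0 members fell with DMSO against untreated cells in either line. In SUDHL2 KIF2C (0.47 ± 0.12, adjusted p = 0.011), CKAP2 (0.46 ± 0.14, 0.032) and BUB3 (0.38 ± 0.12, 0.044) rose at 1 h, where 3.57% of all genes rose, and the median over the 44 was 0.06, or -0.08 when arrays were scaled to their 75th percentile, with 0 called. Without untreated experiment 2, 0 were called, and without untreated experiment 1 or 3 or DMSO experiment 1 or 3, 1 was. Not called at 1 h were TOP2A (0.24 ± 0.14, adjusted p = 0.35), AURKA (0.16 ± 0.13, 0.54), CCNB1 (0.13 ± 0.20, 0.79), PLK1 (0.05 ± 0.16, 0.92), CDC20 (0.02 ± 0.16, 0.97), FOXM1 (-0.04 ± 0.22, 0.95), BUB1 (-0.05 ± 0.13, 0.89) and CDK1 (-0.07 ± 0.18, 0.89).
At 2 h 10 of 44 rose and 0 fell in SUDHL2, where 7.97% of all genes rose. CDCA8 measured 9.41, 9.85 and 9.93 with DMSO at 2 h and 8.98, 8.92 and 8.90 untreated (0.80 ± 0.15, adjusted p = 0.00015). BUB3 (0.71 ± 0.12, adjusted p = 3.3e-05), CKAP2 (0.69 ± 0.14, 0.00038), KIF4A (0.65 ± 0.15, 0.0023), CENPE (0.63 ± 0.19, 0.022), KIF23 (0.61 ± 0.17, 0.014, with a second probe at -0.43), KIF11 (0.53 ± 0.15, 0.014), CDC25C (0.49 ± 0.17, 0.043), NDC80 (0.49 ± 0.17, 0.038) and AURKA (0.40 ± 0.13, 0.032) were the others. Without untreated experiment 1 or DMSO experiment 1, 6 were called, and without untreated experiment 3, 5, while the AURKA call was lost without any 1 of the 6 arrays. Not called at 2 h were CCNB1 (0.25 ± 0.20, adjusted p = 0.48), TOP2A (0.25 ± 0.14, 0.26), CDC20 (0.17 ± 0.16, 0.56), CDK1 (0.02 ± 0.18, 0.97), FOXM1 (-0.01 ± 0.22, 0.99), PLK1 (-0.04 ± 0.16, 0.91) and BUB1 (-0.21 ± 0.13, 0.31).
In SUDHL6 0 of 44 were called at 1 h, with 2 at an unadjusted p under 0.05, where 1.79% of all genes were called, and the central members were CDC20 (0.18 ± 0.16, adjusted p = 0.8), AURKA (0.11 ± 0.13, 0.88), TOP2A (-0.02 ± 0.14, 0.98), BUB1 (-0.12 ± 0.13, 0.86), FOXM1 (-0.12 ± 0.22, 0.94), CCNB1 (-0.15 ± 0.20, 0.9), CDK1 (-0.15 ± 0.18, 0.88) and PLK1 (-0.18 ± 0.16, 0.81). At 2 h 4 rose, where 5.31% of all genes rose: CKAP2 (0.85 ± 0.14, adjusted p = 1.8e-05), CDC25C (0.71 ± 0.17, 0.0031), NDC80 (0.51 ± 0.17, 0.037) and CDCA8 (0.45 ± 0.15, 0.042). That CKAP2 rise was the greatest, from arrays at 9.88, 10.06 and 9.62 with DMSO and 8.92, 8.91 and 9.20 untreated. Leaving out untreated or DMSO experiment 1 or 2 left 2 of these 4. The CDC25C call was lost with the mean of its detected probes (0.28, adjusted p = 0.15) and without the third experiment (0.51, 0.11). Not called at 2 h were AURKA (0.28 ± 0.13, adjusted p = 0.18), FOXM1 (0.21 ± 0.22, 0.66), PLK1 (0.00 ± 0.16, 1), TOP2A (-0.08 ± 0.14, 0.8), CDK1 (-0.09 ± 0.18, 0.83), CDC20 (-0.14 ± 0.16, 0.66), CCNB1 (-0.16 ± 0.20, 0.72) and BUB1 (-0.21 ± 0.13, 0.36).

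**Figure D4:**
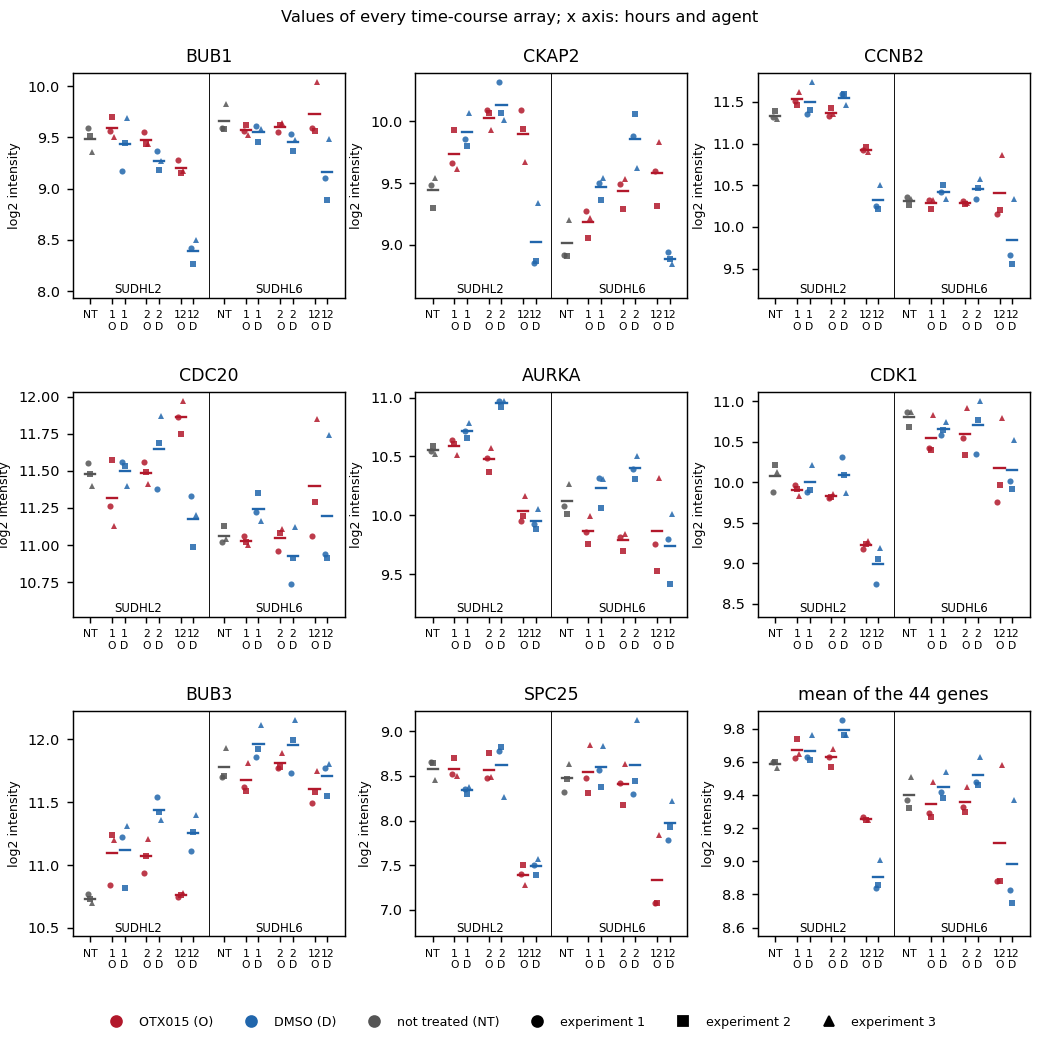
Log2 intensity (y axis) of 8 genes and of the mean of the 44 on each time-course array, by line, hour and agent (x axis; red OTX015, blue DMSO, grey untreated; point shapes are experiments, bars are group means of 3 arrays). BUB1, CKAP2 and CCNB2 show OTX015 above DMSO at 12 h in both lines, BUB3 shows the reverse in SUDHL2, and the third SUDHL6 experiment (triangles) has the highest mean of the 44 at 12 h, 9.58 with OTX015 and 9.37 with DMSO.

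Among the 97 other mitosis genes, 51 fell and 6 rose with DMSO at 12 h in SUDHL2, and 32 fell and 2 rose in SUDHL6. Of all genes 10.9% fell and 12.2% rose in SUDHL2, and 8.17% fell in SUDHL6. The greatest falls in SUDHL2 were of HJURP (-1.39 ± 0.16, adjusted p = 1.1e-08), CENPO (-1.35 ± 0.14), KNTC1, a checkpoint protein of the kinetochore corona (-1.22 ± 0.15), and SPC24 (-1.21 ± 0.17). In SUDHL6 they were of KNTC1 (-0.90 ± 0.15, adjusted p = 3.8e-05), CKAP2L, NCAPG2, a condensin subunit, and the kinesin KIF15, the last 3 at -0.89, -0.88 and -0.86. The 16 genes listed for the anaphase promoting complex, regulators included, had medians of 0.03 in SUDHL2, with 4 risen and 1 fallen, and 0.09 in SUDHL6, with 2 risen and 2 fallen. The fallen gene in SUDHL2 was FBXO5 (-1.02 ± 0.14, adjusted p = 3.8e-07), and those in SUDHL6 were FBXO5 (-0.64 ± 0.14, 0.00093) and FZR1, a coactivator of the complex (-0.48 ± 0.16, 0.039).
At 2 h 12 rose and 3 fell in SUDHL2, and 12 rose and 4 fell in SUDHL6, CENPL among the risen in both (0.91 ± 0.14 and 0.49 ± 0.14). Of all genes 7.97% rose at 2 h in SUDHL2 and 5.31% in SUDHL6.

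A further pair of comparisons, OTX015 at 12 h against untreated cells, was added after the data had been seen, to show on which side of the untreated level the OTX015 arrays lay. In SUDHL2 3 of 44 genes were higher and 22 lower, where 19.2% of all genes were higher and 17.2% lower, with a median of -0.43. BIRC5 (0.80 ± 0.18, adjusted p = 0.00037), CDC25B (0.61 ± 0.20, 0.011) and CKAP2 (0.46 ± 0.14, 0.0071) were the 3 above the untreated level, the CKAP2 call being lost without OTX015 experiment 1 (0.36, adjusted p = 0.066) and with 75th percentile scaling (0.36, 0.071). The BIRC5 call was lost with the mean of its detected probes (0.24, adjusted p = 0.22). BUB1 (-0.29 ± 0.13, adjusted p = 0.076), CDC20 (0.38 ± 0.16, 0.054), FOXM1 (-0.54 ± 0.22, 0.054), CCNB1 (0.32 ± 0.20, 0.23), TOP2A (-0.23 ± 0.14, 0.20) and PLK1 (-0.25 ± 0.16, 0.23) were not called. CDC20 passed the test with the authors' processed values (adjusted p = 0.04), in a fit of this line alone (0.015) and with slide as a fixed (0.049) or random block (0.039). FOXM1 passed with 75th percentile scaling (-0.64, adjusted p = 0.023), in a fit of this line alone (0.044), with the mean of its probes (-0.47, 0.048) and without untreated experiment 3 (-0.66, 0.039). SPC25 (-1.18 ± 0.18, adjusted p = 1.1e-06), BUB1B (-0.95 ± 0.16, 5.4e-06), PRC1 (-0.95 ± 0.14, 5.2e-07), CCNA2 (-0.86 ± 0.17, 5.5e-05), CDK1 (-0.84 ± 0.18, 0.00022) and MAD2L1 (-0.81 ± 0.19, 0.00075) were the lowest, and UBE2C (-0.66 ± 0.20, adjusted p = 0.0087), KIF2C (-0.65 ± 0.12, 2.7e-05) and AURKA (-0.52 ± 0.13, 0.0013) were lower too. Scaling to the 75th percentile moved the median of all genes in this comparison to 0.111 and that of the members to -0.50.
In SUDHL6 1 of 44 was higher, CKAP2 (0.58 ± 0.14, adjusted p = 0.00095), and 13 were lower, where 16.3% of all genes were higher and 14.6% lower. The lowest were SPC25 (-1.14 ± 0.18, adjusted p = 2.8e-06) and FOXM1 (-1.12 ± 0.22, 0.00011). FOXM1 measured 7.03, 7.08 and 7.74 with OTX015 at 12 h and 8.13, 8.23 and 8.85 untreated, with no overlap. Lower as well were UBE2C (-0.94 ± 0.20, adjusted p = 3e-04), CCNA2 (-0.92 ± 0.17, 2.6e-05), PRC1 (-0.86 ± 0.14, 4.6e-06), AURKB (-0.82 ± 0.20, 0.001), BUB1B (-0.72 ± 0.16, 0.00042), NDC80 (-0.65 ± 0.17, 0.0019), CDK1 (-0.63 ± 0.18, 0.0058), TOP2A (-0.58 ± 0.14, 0.00099) and PLK1 (-0.49 ± 0.16, 0.017), and not called were CDC20 (0.33 ± 0.16, adjusted p = 0.11), BUB1 (0.07 ± 0.13, 0.74), AURKA (-0.25 ± 0.13, 0.14) and CCNB1 (-0.25 ± 0.20, 0.39). The CDK1 call was lost without OTX015 experiment 1 (-0.43, adjusted p = 0.1) or 2 (-0.52, 0.05) and the PLK1 call without OTX015 experiment 2 (-0.38, 0.11) or untreated experiment 3 (-0.44, 0.063). Without the third experiment 24 were lower, and without its OTX015 array alone 25. CCNB1 (-0.58, adjusted p = 0.0044) and AURKA (-0.4, 0.011) were among those lower without the experiment. They were also lower without that array alone, at -0.67 (0.0026) and -0.48 (0.0024). On the slide with experiments 1 and 2 of both groups the median of the 44 was -0.46. On the slide with 1 array of each, both of the third experiment, it was 0.09.

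The response to OTX015 was set against itself at the 2 later times and between the lines. In SUDHL2 the difference from DMSO was higher at 12 h than at 2 h for 23 of 44 genes and lower for 0, where 10.5% of all genes were higher, with a median of 0.63. ANLN (1.04 ± 0.31, adjusted p = 0.012), ECT2 (0.98 ± 0.25, 0.0032), CKAP2 (0.98 ± 0.19, 0.00019) and KIF4A (0.98 ± 0.22, 0.00077) had the greatest change. The 75th percentile scaling left 8 genes called, and the count was 15 without OTX015 2 h experiment 2 and 14 without DMSO 12 h experiment 2. In SUDHL6 5 genes were higher at 12 h, where 5.72% of all genes were higher: CKAP2 (1.11 ± 0.19, adjusted p = 5.8e-05), ASPM (0.76 ± 0.24, 0.029), AURKA (0.73 ± 0.18, 0.0046), CENPA (0.73 ± 0.22, 0.021) and CCNB2 (0.72 ± 0.20, 0.0096). Leaving out 1 array at a time gave 2 to 12 calls there: 12 without DMSO 12 h experiment 3, 3 without DMSO 2 h experiment 3, and 2 without DMSO 12 h experiment 2 or OTX015 12 h experiment 3.

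Between the lines, no member's response was called different. At 2 h 0 of 44 were called, with 1 at an unadjusted p under 0.05, where 0.681% of all genes were called in either direction, and the median difference, SUDHL2 minus SUDHL6, was 0.02, or -0.16 with 75th percentile scaling. At 12 h 0 of 44 were called, with 10 at an unadjusted p under 0.05, where 12.5% of all genes were called, and the median was 0.24, or 0.07 with that scaling. ECT2 came nearest at 0.68 ± 0.25 (adjusted p = 0.065), with a response of 0.66 in SUDHL2 and -0.03 in SUDHL6. Without SUDHL6 OTX015 12 h experiment 3, 11 members were called, without SUDHL6 DMSO 12 h experiment 2, 4, and without the third SUDHL6 experiment as a whole, 3. Of the 97 other mitosis genes 6 had the higher response in SUDHL2 at 12 h, SPC24 by 0.95 ± 0.25 (adjusted p = 0.0066) and CIT, citron kinase, by 0.95 among them, and 1, ANAPC1, the lower (-0.47 ± 0.16, 0.039).

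Untreated SUDHL2 and SUDHL6 cells differed in 25 of the 44 genes. In SUDHL2 18 were higher and 7 lower, where 27.1% of all genes were higher and 25.5% lower. MAD2L1, the checkpoint protein that binds CDC20, measured 10.75, 10.80 and 10.84 in SUDHL2 and 9.25, 9.15 and 9.34 in SUDHL6, the greatest difference (1.55 ± 0.19, adjusted p = 5.2e-09), or 2.93-fold. BUB3 measured 10.77, 10.73 and 10.70 in SUDHL2 and 11.70, 11.71 and 11.93 in SUDHL6, the greatest in the other direction (-1.05 ± 0.12, adjusted p = 4.9e-10). The arrays of the lines did not overlap for 32 of the 44 genes, where that was so for 61.8% of all genes.
CDC25C (1.19 ± 0.17, adjusted p = 8.3e-08), CCNB2 (1.02 ± 0.14, 4.2e-08), CENPA (1.02 ± 0.16, 3.6e-07), PRC1 (0.88 ± 0.14, 7.5e-07), CCNA2 (0.82 ± 0.17, 5.7e-05), ECT2 (0.81 ± 0.18, 0.00014) and HMMR (0.77 ± 0.16, 8.1e-05) were higher in SUDHL2. So were PLK1 (0.48 ± 0.16, adjusted p = 0.01), AURKA (0.44 ± 0.13, 0.004) and CDC20 (0.41 ± 0.16, 0.024). The PLK1 call was lost without untreated SUDHL2 experiment 1 (0.42, adjusted p = 0.053). CDK1 was lower in SUDHL2, at 9.88, 10.21 and 10.13 against 10.86, 10.68 and 10.87 in SUDHL6 (-0.73 ± 0.18, adjusted p = 0.00068), with TTK (-0.84 ± 0.16, adjusted p = 2.8e-05), KIF11 (-0.68 ± 0.15, 0.00021), CENPF (-0.55 ± 0.22, 0.032), BIRC5 (-0.53 ± 0.18, 0.012) and CDCA8 (-0.42 ± 0.15, 0.017). CCNB1 (0.31 ± 0.20, adjusted p = 0.21), BUB1 (-0.18 ± 0.13, 0.25), TOP2A (-0.24 ± 0.14, 0.15) and FOXM1 (-0.25 ± 0.22, 0.37) were not called. The CENPF call was lost without any 1 of 5 of the 6 arrays, with adjusted p of 0.053 to 0.089, and the CDC20 call without any 1 of 4 of them, with 0.053 to 0.077. The untreated arrays of the lines lay mostly on different slides. With slide as a fixed term the calls of PLK1 (0.44, adjusted p = 0.06) and CDC20 (0.33, 0.15) were lost. BIRC5 and CDCA8 lost theirs with 75th percentile scaling (adjusted p = 0.051 and 0.083). They did so too with the experiment number as a block (0.055 and 0.12). Fitting only these groups gave CCNB1 (adjusted p = 0.018) and TOP2A (0.019) a call. The cyclin B2 and CDK1 transcripts thus differed in opposite directions between these lines.

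Across the panel of 22 untreated lines, with 1 array each and no test, the members ranged together in some lines. In VAL 43 of 44 genes lay above the panel median, by a median of 0.55, followed by OCI-Ly7 (0.41, 40 of 44), OCI-Ly19 (0.39, 34 of 44), OCI-Ly1 (0.33, 38 of 44) and SU-DHL-4 (0.24, 36 of 44). At the other end stood SU-DHL-6 (-0.56, 6 of 44 above), OCI-Ly3 (-0.42, 11 of 44), Karpas-422 (-0.33, 15 of 44) and OCI-Ly8 (-0.27, 8 of 44). SU-DHL-6 was the lowest line for 14 genes, among them CCNB1 at 7.83, CCNB2 at 8.98, CENPE at 7.05 and CDC20 at 10.20. VAL was the highest for 12, among them CCNB2 at 11.08, AURKB at 10.50, NEK2 at 10.60 and CDCA3 at 10.26. The medians over all genes stayed between -0.04 and 0.02 in every line.

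**Figure D5:**
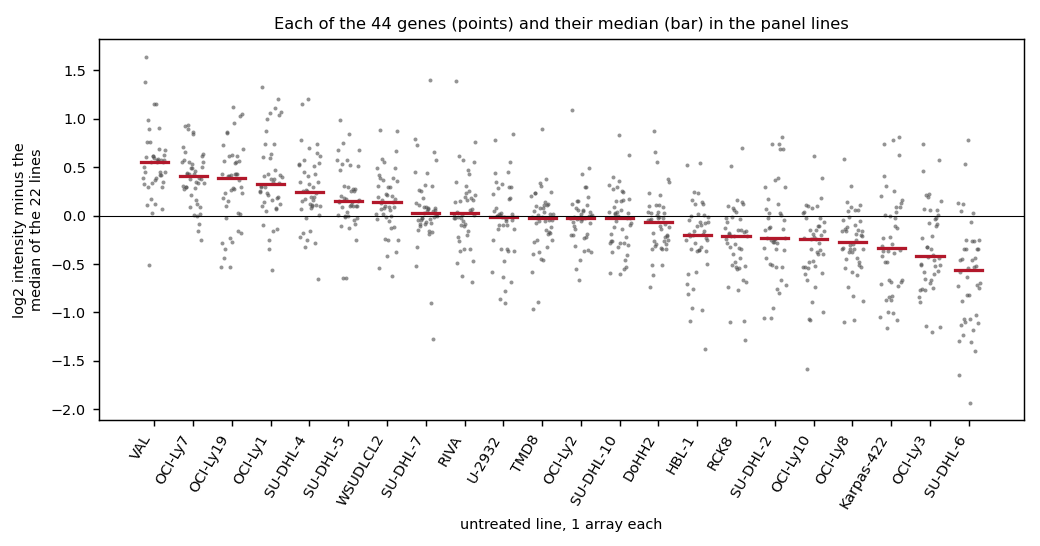
Log2 intensity minus the median of the 22 lines (y axis) for each of the 44 genes (points) in each untreated panel line (x axis, ordered by the median of the 44, red bar; 1 array per line). VAL, at 0.55, and SU-DHL-6, at -0.56, lie at the ends, and single genes spread over more than 1 log2 unit within a line.

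ANLN had the widest range over the panel, 2.58, between 6.66 in HBL-1 and 9.24 in OCI-Ly1, then CENPE with 2.57 and CDC25B with 2.49, while KIF23 had 0.99 and BUB3 1.13. The median SD over lines was 0.47 for the members and 0.43 for all genes tested. As a description over the 22 lines, which share processing and lie on 4 slides, Pearson's r was above 0 for 888 of 946 pairs of members, with a median of 0.36. CENPE and KIF14 (0.85), CDCA3 and FOXM1 (0.79), CCNB1 and CDC20 (0.77), and CDC25B and NUSAP1 (0.77) were the closest. CDK1 and CKAP2 (-0.50) were the most opposed. CENPF followed the mean of the other members most closely (0.84), and CKAP2 least (0.08).
The panel arrays named SU-DHL-2 and SU-DHL-6 did not sit at the level of the untreated time-course arrays of those lines. The median difference, panel minus time course, was -0.41 on the SU-DHL-2 array, with 7 of 44 members higher, and -0.67 on the SU-DHL-6 array, with 3 of 44 higher. Over all genes each panel array still resembled its namesake most, with r of 0.63 and 0.68 for centred values. The Karpas-422 values are from its own signals, since the authors' processed column under that name did not match them, and without it r of CKAP2 with the other members was 0.15.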

How the data were processed

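The authors deposited non-normalized bead array signals, linear intensity values with no background correction, for 64 arrays: 42 of the time course (14 groups of 3) and 22 of the panel. They also deposited a processed table of log2 values per the file's values, used as an alternative, in which 63 of 64 columns matched their own signals. Per the labels' protocols, RNA was column-purified, of checked integrity, and labelled as biotin cRNA. The sources used here do not give the array model, the scanner software or detection values.

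Signals were background-corrected by normexp (offset 16), quantile normalized over 64 arrays and put on the log2 scale with limma 3.58.1 in R 4.3.3. A probe was detected where its signal exceeded the upper 0.01 tail of the background mirrored around each array's mode, and genes were kept if detected on at least 3 of 42 arrays. Of 47231 probes, 30113 had 1 symbol, 8 had several and 17110 had none in the platform annotation. Each gene took its probe of highest mean signal. Group means were fitted over the 42 arrays, with contrasts, moderated variances with an intensity trend, and Benjamini-Hochberg adjustment over 13366 genes at 0.05. Precision is limited by how many arrays there are. The fit and the detection rule were tested on simulated data.

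There were 17 comparisons, and 2 more were added after the data were seen. The members and lists were chosen with earlier results of these data known. All members could be named; full statistics were given for called members, up to 8 per direction (4 in the comparisons between responses), and, in the other comparisons, always for CCNB1, CDK1, PLK1, AURKA, CDC20, BUB1, TOP2A and FOXM1. Same-numbered OTX015 and DMSO arrays deviated together in SUDHL6 (correlations 0.13 to 0.44) but not in SUDHL2 (-0.28 to 0.16). Pairs of DMSO and untreated arrays did not all do so (-0.07 to 0.43). The main fit paired no arrays in any comparison, so the SUDHL6 calls are from unpaired groups. The experiment number entered only as a block in an alternative fit, for both lines. The labels do not say what a shared number stands for.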

Additional observations from a re-analysis of the deposited data

Results flagged for a closer look

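The response to OTX015, its difference from DMSO, changed between 2 h and 12 h by a test of that change itself. In SUDHL2 23 of the 44 genes were called, all with the higher response at 12 h, where 10.5% of all genes were higher, the greatest being ANLN (1.04), ECT2 (0.98), CKAP2 (0.98) and KIF4A (0.98) in log2 units. In SUDHL6 5 were called, again all higher at 12 h, where 5.72% of all genes were higher, with CKAP2 at 1.11, ASPM at 0.76, AURKA at 0.73 and CENPA at 0.73 as the greatest. With arrays scaled to their 75th percentile 8 and 1 were called in the same order of lines, and leaving out 1 array at a time gave 14 to 22 in SUDHL2 and 2 to 12 in SUDHL6. The DMSO arrays moved over the same hours, with medians of the 44 against untreated cells of 0.17 at 2 h and -0.73 at 12 h in SUDHL2, and 0.09 at 2 h and -0.40 at 12 h in SUDHL6. Their part in the change of response was not tested.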

How the results depend on the processing

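Among 4235 values of named members under the alternatives, 4026 stayed on their side of the threshold, among them 91 uncalled values that changed sign, 175 lost and 34 gained a call, and 0 called values changed sign. Of 274 counts under alternatives other than leaving out an array, 241 stayed within 1.5 times. The causes of the moves below were not tested. Scaling to the 75th percentile gave 2 members called in SUDHL2 at 2 h in place of 1, 1 in SUDHL6 at 2 h (2), 0 with SUDHL2 DMSO at 1 h (3), 6 at 2 h (10), 2 with SUDHL6 DMSO at 2 h (4), and 8 (23) and 1 (5) for the change of response in SUDHL2 and SUDHL6. For SUDHL2 at 2 h (1), no background correction gave 3, offset 50 gave 2, quantiles within the 42 arrays 2, the authors' processed values 3, probes detected on all arrays of a group 2, and slide as a fixed or random block 2 each. Fitting only the groups compared gave 0 in SUDHL2 at 2 h, 5 in SUDHL6 at 12 h (11), 5 with SUDHL2 DMSO at 1 h and 1 for the SUDHL6 change of response. Fitting only one line gave 5 in SUDHL2 at 2 h, 1 in SUDHL6 at 2 h, 11 with SUDHL6 DMSO at 12 h (17) and 3 for the SUDHL6 change of response. The mean of a gene's probes gave 1 with SUDHL6 DMSO at 1 h (0). Slide as a fixed block gave 26 with SUDHL6 DMSO at 12 h and 1 for the line difference at 12 h (0). The replicate block, the experiment number in the fit, gave 5 in SUDHL2 and 5 in SUDHL6 at 2 h, 7 with SUDHL6 DMSO at 2 h, 3 for the line difference at 12 h, and 15 in SUDHL6 at 12 h, and moved no other count by over 1.5 times. Leaving out the third SUDHL6 experiment, an alternative chosen after seeing the data, gave 29 with DMSO at 12 h, 3 for the line difference at 12 h, 8 for the SUDHL6 change of response and 25 for SUDHL6 OTX015 at 12 h against untreated cells (14). The authors' values put the panel's SU-DHL-6 at -0.41 in place of -0.56.

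Leaving out 1 array at a time, calls ranged over 0 to 0 at 1 h, 0 to 3 at 2 h and 17 to 19 at 12 h in SUDHL2, and 0 to 0, 1 to 2 and 7 to 18 in SUDHL6. For DMSO against untreated cells they ranged over 0 to 3, 5 to 9 and 32 to 34 in SUDHL2, and 0 to 1, 2 to 5 and 5 to 32 in SUDHL6, the 1 call at 1 h in SUDHL6 arising without untreated experiment 3. The line difference ranged over 0 to 0 at 2 h and 0 to 11 at 12 h, 1 member being called without SUDHL2 OTX015 or DMSO experiment 3. The change of response ranged over 14 to 22 in SUDHL2 and 2 to 12 in SUDHL6, the untreated lines over 20 to 23, and OTX015 at 12 h against untreated cells over 19 to 23 in SUDHL2 and 11 to 26 in SUDHL6.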
